A study of Mus musculus with 6 samples.

Results

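The mitochondrial genome of the mouse is a small circular DNA kept in many copies per cell. Its genes are transcribed from both strands as long precursor RNAs, and tRNAs that lie between most of the other genes are cut out of them, which frees the rRNAs and mRNAs. The mRNAs encode core subunits of the respiratory chain and of ATP synthase, while the other subunits, the polymerase, the RNA-processing enzymes and the ribosomal proteins are encoded in the nucleus and imported.

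The genes described are all those that the deposited table places on chromosome MT, 33 of its 23449 genes: 13 mRNAs, 2 rRNAs and 18 tRNAs. All 13 mRNAs, both rRNAs and 10 of the tRNAs passed the filter on low counts, which left 25 of 13698 genes tested. Reads were counted in 6 cell lines from the mammary tissue of female FVB/N mice, 3 named EIC and 3 named 16IC, with the genotype labels EIC/WT and 16IC/WT. The labels do not spell out these names. As background, EIC is known as inducible wild-type ErbB2, a receptor tyrosine kinase also called HER2, and 16IC as its splice form that lacks exon 16. All 6 lines grew with doxycycline at 10 ug/mL, in DMEM with 10% serum, EGF, insulin and pituitary extract. Doxycycline is a tetracycline, a class known to inhibit translation on mitochondrial ribosomes. Since every line received it, an effect of the drug on these transcripts cannot be told apart from their baseline, nor an effect of the receptor form from other differences between the lines. The origin of each line, by animal or culture, is not in the labels, and a p-value here covers no more than the spread among 6 samples.

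Library totals lay between 15621563 and 17468498 counts. Across all genes 2 lines stood apart from the others of their group. The chi-square per gene between replicate pairs was 19.5 for 16IC 1 and 16IC 2 and 51.6 for EIC 1 and EIC 3, but 139 and 171 for the pairs with EIC 2, and 269 and 261 for the pairs with 16IC 3. The titles give EIC 2 as NT where the others have a number, and its meaning is not stated. The luminal keratin genes Krt8 and Krt18 were expressed in every line (562 to 2646 CPM, a count scaled to a common library size). Cdh1 (56.3 to 1051 CPM) and Cldn3 (45.1 to 789 CPM) were also present in all 6. The other luminal markers varied between lines. Elf5, Esrp1 and Cldn7 had at most 0.868 CPM in EIC. They had 2.78 to 25.7 CPM in 16IC 3 and 41.4 to 392 CPM in 16IC 1 and 16IC 2. Cldn4 had 0 to 27.9 CPM in EIC, 36.8 in 16IC 3, and 1617 and 1879 in 16IC 1 and 16IC 2. Epcam had 0.455 to 3.78 CPM in EIC, 51.0 in 16IC 3 and 1157 and 1342 in 16IC 1 and 16IC 2, while Krt19 had 197 CPM in EIC 2, 7.68 and 10.1 in EIC 1 and EIC 3 and at most 0.647 in 16IC. The 10 luminal markers summed to 2555 to 3300 CPM in EIC, mostly Krt8 and Krt18. The sums were 9701 and 9756 CPM in 16IC 1 and 16IC 2 and 1654 CPM in 16IC 3. The 6 basal markers summed to 10.4, 27.4 and 17.55 CPM in EIC 1 to 3. In 16IC 1 to 3 they summed to 14.0, 2.38 and 64.1 CPM. Trp63 had 11.5 CPM in EIC 2 and Oxtr 46.3 CPM in 16IC 3, while Krt5 had 0 to 0.0610 CPM in all lines. Of 6 leukocyte markers 4 were in the table and summed to 12.4 to 47.5 CPM, mostly Cd68, with the defining marker Ptprc at 0 to 0.305 CPM. The 4 fibroblast markers in the table summed to 88.9, 7.14 and 104 CPM in EIC 1 to 3 and 7.27 to 21.6 CPM in 16IC, mostly Pdgfra, with Col1a1 at 0.512 to 4.98 CPM. The 2 adipocyte markers in the table, of 5, summed to 22.1, 0.240 and 42.1 CPM in EIC and 0.183 to 1.88 CPM in 16IC, nearly all Fabp4.

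Mitochondrial mRNAs took a larger share of the counts in every 16IC line than in any EIC line. They held 1.40, 0.907 and 1.30% of all counts in EIC 1 to 3, against 1.97, 2.18 and 3.34% in 16IC 1 to 3. The means were 1.203% ± 0.262 and 2.495% ± 0.742 (SD, n = 3), a ratio of 2.07. EIC 2 was the lowest line and 16IC 3 the highest, and these are also the lines that stood apart over all genes. The 95% Wilson interval of the share, which covers counting error only, ran from 0.902 to 0.911% in EIC 2 and from 3.34 to 3.35% in 16IC 3. The difference in mean log2 share was 1.04 over all lines, 0.81 without 16IC 3, and 0.62 with EIC 2 and 16IC 3 both left out. In RNA from whole cultures, fewer cells of a type and less RNA per cell cannot be told apart, and a share of counts does not say which RNAs set it.

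**Figure D1:**
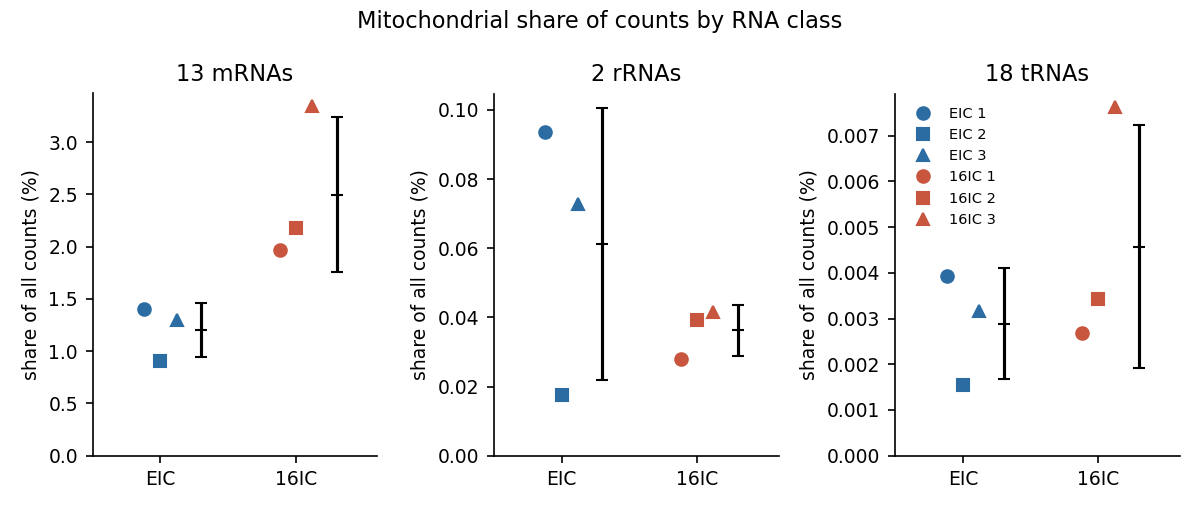
Share of all counts (%, y axis) held by the 13 mitochondrial mRNAs, 2 rRNAs and 18 tRNAs in each line. Points are lines, and the bar to their right is the group mean with 1 SD (n = 3). The 3 points of 16IC lie above all 3 of EIC for mRNAs (1.97 to 3.34% against 0.907 to 1.40%), while the groups overlap for rRNAs and tRNAs.

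Other measures also differed between lines, mainly in 16IC 3. In 16IC 3, cytosolic ribosomal protein genes held 1.23% of the counts against 2.49 to 2.94% in the other 5 lines. The nuclear-retained RNA Malat1 reached 1457 CPM there against 366 to 600 CPM elsewhere, and Neat1 2101 CPM against 431 to 1106 CPM. In EIC 2, Neat1 was at its lowest (431 CPM). Malat1 (389 CPM) and the ribosomal protein share (2.94%) of EIC 2 were close to those of 16IC 1 (366 CPM and 2.91%). The part of these differences in the mitochondrial share was not tested.

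The 4 mitochondrial mRNAs with the most counts were mt-Co1, mt-Cytb, mt-Nd1 and mt-Nd5, which ranked 3, 6, 16 and 20 among all genes by total count. The catalytic subunit gene of cytochrome c oxidase, mt-Co1, had 5100, 3272 and 5237 CPM in EIC 1 to 3 and 6635, 7617 and 13964 CPM in 16IC 1 to 3. For mt-Cytb, which encodes cytochrome b of complex III, the values were 2494, 1976 and 2578 CPM in EIC and 3930, 4536 and 6533 CPM in 16IC. In both genes every 16IC line lay above every EIC line, and the gap from 16IC 2 to 16IC 3 was wider than that from 16IC 1 to 16IC 2. The log2 fold change of 16IC over EIC was 1.05 (SE 0.44) for mt-Co1 and 1.09 (SE 0.33) for mt-Cytb, and neither passed edgeR's quasi-likelihood test (adjusted p = 0.223 and 0.123).

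Complex I takes 7 of its subunits from mitochondrial mRNAs. The membrane-arm subunit gene mt-Nd1 had 2122, 1286 and 1799 CPM in EIC 1 to 3 and 2629, 2809 and 3440 CPM in 16IC 1 to 3. The proton-pumping subunit gene mt-Nd5 had 1670, 946 and 1551 CPM in EIC and 1916, 2361 and 3932 CPM in 16IC. The groups did not overlap in mt-Nd1 and mt-Nd5, nor in mt-Nd2, mt-Nd4, mt-Nd6 and mt-Nd3. The pumping subunit mRNA mt-Nd2 had 1053, 711 and 1331 CPM in EIC against 1527, 1879 and 2005 CPM in 16IC. That of mt-Nd4 had 996, 614 and 1005 CPM against 1310, 1478 and 2695 CPM. The log2 fold changes of these 4 were 0.77 (SE 0.30) for mt-Nd1, 0.81 (SE 0.31) for mt-Nd2, 1.07 (SE 0.38) for mt-Nd4 and 0.98 (SE 0.39) for mt-Nd5, with edgeR adjusted p of 0.169 to 0.208. The mRNA of mt-Nd6, the 1 mRNA encoded on the other strand, had 413, 248 and 351 CPM in EIC and 460, 557 and 1010 CPM in 16IC, with a fitted log2 fold change of 1.001 (SE 0.37, edgeR adjusted p = 0.179). Per length mt-Nd6 was close to mt-Nd5, which it overlaps by 14 bases on the opposite strand: 79.7 to 92.3 mt-Nd6 counts per kilobase for every 100 of mt-Nd5 in EIC, and 82.9 to 90.3 in 16IC. The sources used here do not state whether the counting used strand, so reads of mt-Nd6 and of RNA antisense to it cannot be told apart.

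The 2 smallest complex I members had few counts. For mt-Nd3 there were 32 to 48 counts per line in EIC and 48 to 55 in 16IC, or 1.92 to 2.73 CPM and 2.93 to 3.56 CPM (fitted log2 difference 0.43, SE 0.34, edgeR adjusted p = 0.505). For mt-Nd4l the lines had 13.7, 1.44 and 4.84 CPM in EIC and 4.57, 12.8 and 25.2 CPM in 16IC, groups that overlapped (fitted log2 difference 1.09, SE 0.92, edgeR adjusted p = 0.536). It was the 1 mRNA of the 13 whose sign turned when EIC 2 and 16IC 3 were both left out (log2 fold change -0.095), and it ranged from 0.39 without 16IC 3 to 2.15 without EIC 1.

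The ATP synthase subunit genes mt-Atp6 and mt-Atp8 overlap by 43 bases. For mt-Atp6, part of the proton channel, there were 30.1, 24.7 and 23.8 CPM in EIC 1 to 3 and 38.9, 69.1 and 87.9 CPM in 16IC 1 to 3. Its log2 fold change of 1.32 (SE 0.32) had the smallest adjusted p of all members in the edgeR test (0.0869). For mt-Atp8 there were 8 to 24 counts per line in EIC and 24, 26 and 108 in 16IC 1 to 3, and the fold rests largely on 16IC 3 (fitted log2 difference 1.78, SE 0.79, edgeR adjusted p = 0.252; 0.64 without that line). EIC 2 and 16IC 1 had 24 counts each, so the groups of mt-Atp8 are separate by library scaling alone. The electron-accepting subunit gene of cytochrome c oxidase, mt-Co2, had 29.5, 13.7 and 22.5 CPM in EIC and 38.3, 39.1 and 56.9 CPM in 16IC (fitted log2 difference 1.03, SE 0.34, edgeR adjusted p = 0.144). The third mitochondrial subunit gene of that complex, mt-Co3, had 14.2, 14.2 and 17.9 CPM against 18.9, 17.4 and 43.1 CPM, and the groups overlapped (fitted log2 difference 0.78, SE 0.40, edgeR adjusted p = 0.311). Without 16IC 3 its log2 difference was 0.23.

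**Figure D2:**
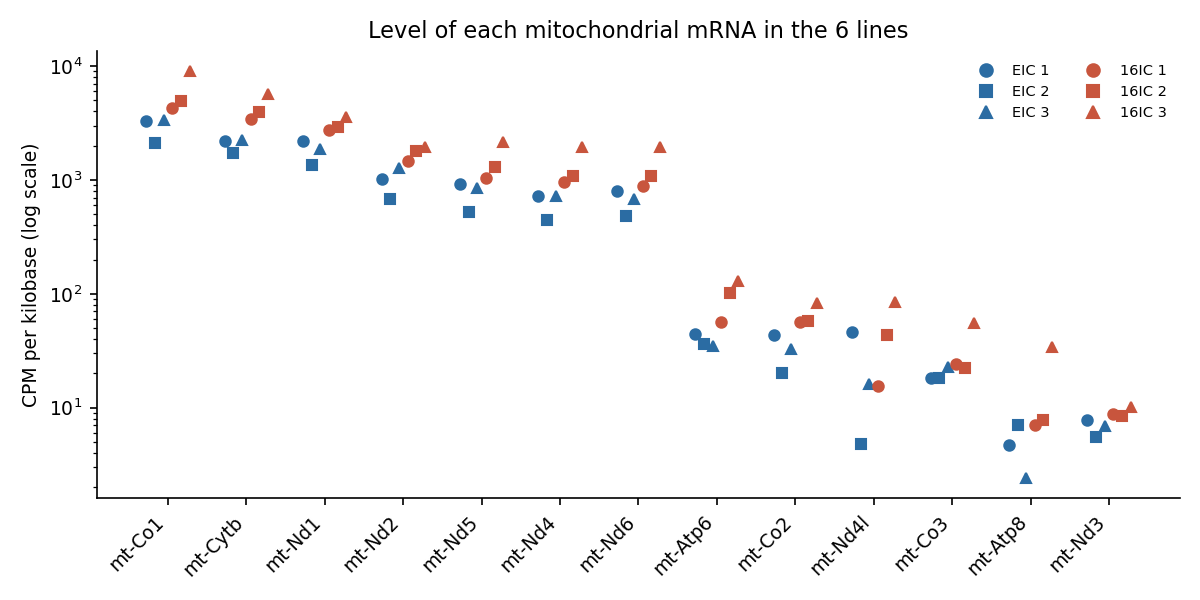
Level of each mitochondrial mRNA in CPM per kilobase (log axis) in the 6 lines, ordered by the mean over the lines. The 7 genes on the left have means of 976 to 4512 CPM per kilobase and the 6 on the right 7.96 to 67.2, and 16IC lies above EIC without overlap in all but mt-Nd4l and mt-Co3.

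Counted together, 0 of the 13 mRNAs passed the edgeR test after adjustment over all tested genes, where 2.45% of all genes were called (1.25% higher and 1.2% lower in 16IC). At an unadjusted p under 0.05 in edgeR there were 8 of 13, all with higher values in 16IC, against 22.7% of all genes, 12.6% in that direction. The log2 fold change was positive in 13 of 13 mRNAs, as in 49.7% of all genes, with a median of 1.03 against -0.0044 over all genes. In 11 of 13 the groups did not overlap, with 16IC above EIC, against 17.2% of all genes. The mRNAs are cut from shared precursors and counted in the same libraries, so these 13 are not independent observations. Limma-voom also called 0 (2.1% of all genes), with an unadjusted p under 0.05 in 9 (3166 of 13698 over all genes). DESeq2 called 2, mt-Cytb and mt-Atp6 (adjusted p = 0.0129 and 0.0146), where it called 12.4% of all genes, 6.67% as higher in 16IC. The authors' deposited adjusted p-values for these 2 mRNAs, 0.0129 and 0.0146, nearly equal those of DESeq2 here. They come from the same counts and are not separate evidence.

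The result depended in size on the lines that stood apart. The median log2 fold change of the mRNAs was 0.65 without 16IC 3 and 0.78 without EIC 2. EdgeR called 0 mRNAs in each case, with 4 and 2 at an unadjusted p under 0.05. Over all genes the fit without 16IC 3 had 4428 of 14262 at that unadjusted p and called 1912. The fit without EIC 2 had 3273 of 14391 and called 282. With both left out, 12 of 13 were positive with a median of 0.47, and edgeR called 1, mt-Cytb (log2 fold change 0.74, adjusted p = 0.0343). In that fit of 2 against 2 lines it called 4092 of 14048 genes.

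**Figure D3:**
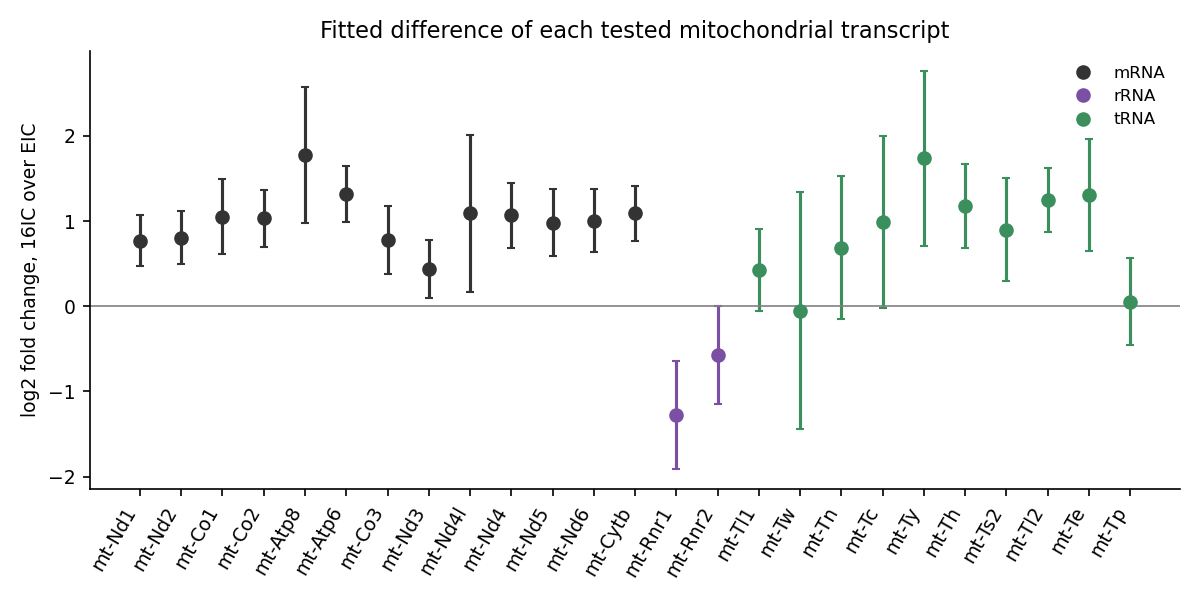
Fitted log2 fold change of 16IC over EIC for the 25 mitochondrial transcripts tested, with the standard error as bars, in genome order within each RNA class. All 13 mRNAs lie above 0 (0.43 to 1.78) and both rRNAs below (-1.27 and -0.57), and edgeR called none of the 25.

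Relative to one another, 12 of the 13 mRNAs held shares that overlapped between the groups. Of all mitochondrial mRNA counts, mt-Co1 held 36.6, 35.9 and 37.6% in EIC 1 to 3 against 35.8, 35.6 and 41.3% in 16IC 1 to 3. For mt-Cytb the shares were 17.9, 21.7 and 18.5% against 21.2, 21.2 and 19.3%. For mt-Nd1 they were 15.2, 14.1 and 12.9% against 14.2, 13.1 and 10.2%, and for mt-Nd5 11.98, 10.4 and 11.1% against 10.4, 11.04 and 11.6%. The groups overlapped in each of these 4. Of the 13, mt-Nd3 alone did not overlap, with the higher share in EIC (exact two-sided permutation p = 0.1, the smallest that 3 against 3 can give, Benjamini-Hochberg adjusted 0.867 over the 13). For the other 12 the exact permutation p was at least 0.2. With EIC 2 and 16IC 3 both left out, 7 of 13 shares did not overlap, where fewer lines make overlap less likely.

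The mRNAs that match a nuclear copy over nearly their whole length had far fewer counts per length than most others. A block on chromosome 1 holds 7 annotated genes, each a copy of 1 mitochondrial mRNA, in the same order as on the mitochondrial genome read from the opposite strand: Gm29216 (mt-Co1), Gm28661 (mt-Co2), Gm10925 (mt-Atp6), Gm28437 (mt-Co3), Gm28438 (mt-Nd3), Gm10222 (mt-Nd4l) and Gm28439 (mt-Nd4). Over the aligned stretch 5 of them were identical to the mitochondrial gene, Gm28438 was 99.7% identical and Gm29216 98.8%. The sequences below, from the GENCODE M21 transcripts on GRCm38, show how little separates gene and copy. Capitals mark bases that differ, and positions count from 1 at the first base of the mitochondrial gene.
mt-Atp6, bases 1 to 60: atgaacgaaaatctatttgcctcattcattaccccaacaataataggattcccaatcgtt
Gm10925, same stretch: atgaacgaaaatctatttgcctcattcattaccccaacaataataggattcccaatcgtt
mt-Nd3, bases 1 to 60: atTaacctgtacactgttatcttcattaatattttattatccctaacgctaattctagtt
Gm28438, same stretch: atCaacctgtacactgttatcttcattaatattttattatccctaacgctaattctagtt
mt-Co1, bases 1054 to 1113: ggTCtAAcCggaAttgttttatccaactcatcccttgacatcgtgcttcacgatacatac
Gm29216, same stretch: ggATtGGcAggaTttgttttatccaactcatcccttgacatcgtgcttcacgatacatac
The stretches begin on the mitochondrial genome at base 7927 for mt-Atp6, 9459 for mt-Nd3 and 6381 for mt-Co1, all on the plus strand. Between mt-Nd3 and Gm28438 the 1 difference was T3C. Between mt-Co1 and Gm29216 there were 6: T1056A, C1057T, A1059G, A1060G, C1062A and A1066T.

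The share of 50-base windows that also occur in an annotated nuclear transcript was 98.0 to 100% in mt-Co2, mt-Co3, mt-Atp6, mt-Nd4l and mt-Nd3. These 5 mRNAs had 7.96 to 67.2 CPM per kilobase, averaged over the lines, and held 0.614% of mitochondrial mRNA counts. The 5 mRNAs with under 10% of windows shared, mt-Cytb, mt-Nd1, mt-Nd2, mt-Nd5 and mt-Nd6, had 976 to 3212 CPM per kilobase and 54.4% of the counts. In between, mt-Co1 with 51.1% of windows shared had 4512 CPM per kilobase and mt-Nd4 with 62.2% had 979. An exception was mt-Atp8, with 0% of windows shared with an annotated transcript and 10.6 CPM per kilobase. Projected onto the chromosome 1 block it falls at 24614609 to 24614812, of which 43 of 204 bases lie inside an annotated copy, and the genome sequence of the rest was not analysed here. The sources used here do not say how the authors' counting treated reads that match several places. The levels of these mRNAs and of their copies are therefore uncertain, and the part of shared sequence in their low counts was not tested.

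**Figure D4:**
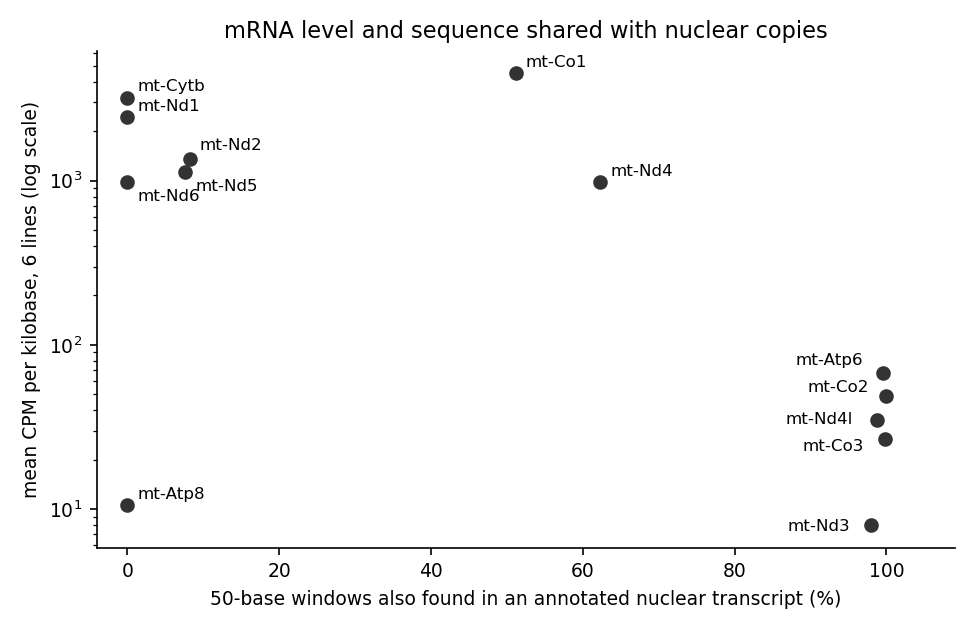
Mean level of each mitochondrial mRNA over the 6 lines in CPM per kilobase (log axis) against the percent of its 50-base windows found in an annotated nuclear transcript. The 5 genes at 98.0 to 100% lie at 7.96 to 67.2 CPM per kilobase, and mt-Atp8 lies low without shared windows.

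The copies of mt-Atp6, mt-Co2 and mt-Co3 on chromosome 1 had counts of the same order as these mitochondrial genes. For every 100 counts of mt-Atp6 there were 56.4 to 102 of Gm10925, for every 100 of mt-Co2 65.4 to 94.99 of Gm28661, and for every 100 of mt-Co3 77.3 to 112 of Gm28437. The ratio varied more between lines for mt-Nd4l, with 23.3 to 125 counts of Gm10222 per 100. By contrast Gm29216 had 0.127 to 0.178 counts per 100 of mt-Co1, and Gm28439 0.663 to 1.05 per 100 of mt-Nd4. For mt-Nd3 the copy had more counts than the gene, 269, 284 and 556 per 100 in EIC 1 to 3 against 655, 590 and 560 in 16IC 1 to 3 (exact two-sided permutation p = 0.1). The log2 fold changes of the 7 copies on chromosome 1 were all positive (49.7% of all genes), with a median of 1.13. A wider list of 11 tested nuclear copies, with some on other chromosomes, had 10 positive and 1 negative (-0.42). EdgeR called 0 of the copies (2.45% of all genes). DESeq2 called Gm28439 and Gm10222 (adjusted p = 0.0288 and 0.0401), where it called 12.4% of all genes, 6.67% as higher in 16IC. Summed with its copy, mt-Atp6 had 51.6, 39.6 and 48.2 CPM in EIC and 70.1, 108 and 144 CPM in 16IC, a log2 ratio of means of 1.21. Summed with Gm28438, mt-Nd3 had 10.1, 7.38 and 15.9 CPM against 23.1, 20.2 and 23.5 CPM, a log2 ratio of 1.004 where mt-Nd3 alone gave 0.43.

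The rRNAs of the mitochondrial ribosome did not follow the mRNAs. The small-subunit rRNA mt-Rnr1 had 417, 64.5 and 284 CPM in EIC 1 to 3 and 77.8, 129 and 110 CPM in 16IC 1 to 3. The large-subunit rRNA mt-Rnr2 had 512, 111 and 496 CPM in EIC and 184, 258 and 310 CPM in 16IC. In each, EIC 1 and EIC 3 were the highest lines and EIC 2 the lowest, so the groups overlapped. The log2 fold changes were -1.27 (SE 0.64) and -0.57 (SE 0.57), and edgeR called neither (adjusted p = 0.295 and 0.604). With EIC 2 and 16IC 3 both left out, edgeR called 4092 of 14048 genes. Both rRNAs were among them, with log2 fold changes of -1.77 and -1.19 (edgeR adjusted p = 0.0107 and 0.00996). Leaving out 1 line, the log2 fold change of mt-Rnr1 ran from -1.74 (without EIC 2) to -0.75 (without EIC 1). That of mt-Rnr2 ran from -1.01 to -0.30, with the same lines at the ends. The marker genes Pdgfra and Fabp4, which make up most of the fibroblast and adipocyte sums, were likewise high in EIC 1 and EIC 3 and low in EIC 2. The other fibroblast markers were not uniform. Among the EIC lines Dcn was lowest in EIC 2, Col1a2 highest there (3.84 CPM), and Col1a1 between EIC 1 and EIC 3. The part of these genes in the rRNA values was not tested.

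Set against the mRNAs of the same library, rRNA counts were higher in every EIC line. There were 6.67, 1.92 and 5.60 rRNA counts per 100 mRNA counts in EIC 1 to 3 against 1.42, 1.81 and 1.24 in 16IC 1 to 3, with means of 4.73 ± 2.49 and 1.49 ± 0.290 (SD, n = 3; exact two-sided permutation p = 0.1, the smallest possible). EIC 2, at 1.92, lay close to 16IC 2 at 1.81. The rRNAs also differed from each other, with 81.5, 58.2 and 57.3 counts of mt-Rnr1 per 100 of mt-Rnr2 in EIC and 42.2, 49.9 and 35.7 in 16IC, groups that did not overlap (exact two-sided permutation p = 0.1). Adjusted by the Benjamini-Hochberg method over the 14 ratios compared, these p-values were 0.35. The sources used here do not state whether libraries were made by poly(A) selection or by removal of rRNA, and these rRNA levels depend on that step.

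Counts of mitochondrial tRNAs were few. The 18 tRNAs summed to 260 to 688 counts per line in EIC and 421 to 1190 in 16IC, or 0.00394, 0.00155 and 0.00316% of all counts in EIC 1 to 3 against 0.00269, 0.00342 and 0.00762% in 16IC 1 to 3, and the groups overlapped. The sequences of 3 of them are given from GENCODE M21, with the anticodon in capitals. These are mt-Tl2, which had the smallest p, mt-Te, a neighbour of mt-Nd6, and mt-Tp, which had the most counts.
mt-Tl2: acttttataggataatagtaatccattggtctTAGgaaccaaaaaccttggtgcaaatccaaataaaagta
mt-Te: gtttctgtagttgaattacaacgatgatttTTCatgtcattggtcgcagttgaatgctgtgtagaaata
mt-Tp: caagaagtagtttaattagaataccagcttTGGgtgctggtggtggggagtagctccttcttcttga
They lie on chromosome MT at 11671 to 11741 (mt-Tl2, plus strand), 14071 to 14139 (mt-Te, minus strand) and 15356 to 15422 (mt-Tp, minus strand). The leucine tRNA mt-Tl2 had 1.48, 1.38 and 2.23 CPM in EIC 1 to 3 and 3.61, 3.72 and 4.79 CPM in 16IC 1 to 3, without overlap. Its log2 fold change was 1.25 (SE 0.38), and edgeR did not call it (adjusted p = 0.125). DESeq2 did (adjusted p = 0.0486), where it called 12.4% of all genes, 6.67% as higher in 16IC. The glutamate tRNA mt-Te had 4.95, 1.80 and 2.61 CPM in EIC and 3.85, 5.13 and 14.2 CPM in 16IC, and the proline tRNA mt-Tp 18.2, 7.98 and 16.3 CPM against 7.51, 12.9 and 23.6 CPM, both overlapping.

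Of the 10 tRNAs tested, edgeR and limma-voom called 0 (2.45 and 2.1% of all genes). An unadjusted edgeR p under 0.05 was found in 1 of them, against 22.7% of all genes. The groups did not overlap in mt-Tl2, mt-Th and mt-Ts2, which lie next to one another between mt-Nd4 and mt-Nd5, with 16IC above EIC in each (17.2% of all genes). The histidine tRNA mt-Th had 0.480 to 1.12 CPM in EIC and 1.34 to 2.46 CPM in 16IC, and the serine tRNA mt-Ts2 0.360 to 1.86 CPM and 1.89 to 2.14 CPM. The values in 16IC 3 were 8.79 times those of the next 16IC line for mt-Tc, 3.71 times for mt-Ty and 2.76 times for mt-Te. Without that line the log2 fold changes of these 3 went from 0.99 to -0.86, from 1.74 to 0.28 and from 1.30 to 0.52. For mt-Tw the lines had 34, 4 and 13 counts in EIC and 1, 2 and 42 in 16IC. With EIC 2 and 16IC 3 both left out, edgeR called mt-Tw lower in 16IC (log2 fold change -3.82, edgeR adjusted p = 0.0197). That fit called 4092 of 14048 genes. The remaining tested tRNAs, mt-Tl1 and mt-Tn, had log2 fold changes of 0.42 and 0.69, with edgeR adjusted p of 0.650 and 0.677. The 8 tRNAs below the filter, mt-Ti, mt-Tq, mt-Tm, mt-Ta, mt-Ts1, mt-Tg, mt-Tr and mt-Tt, had 0 to 10 counts in any line. Genes of the minus strand held 76.0, 73.5 and 75.1% of tRNA counts in EIC and 57.7, 68.6 and 78.8% in 16IC. Fragments of mature tRNAs and unprocessed precursor RNA cannot be told apart in these counts.

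Nuclear genes for the same complexes had log2 fold changes centred slightly below 0. Of 81 tested nuclear subunits of complexes I to IV and ATP synthase, edgeR, limma-voom and DESeq2 called 0, against 2.45, 2.1 and 12.4% of all genes (in DESeq2 6.67% higher and 5.75% lower in 16IC). At an unadjusted p under 0.05 in edgeR there were 6, against 22.7% of all genes. The log2 fold change was positive in 20 (49.7% of all genes) and negative in 61, with a median of -0.14. The 13 mitochondrial mRNAs had a median of 1.03. Upper-quartile scaling gave 25 positive and 56 negative with a median of -0.076. Leaving out both EIC 2 and 16IC 3 gave 40 and 41 with a median of -0.0044. EdgeR called 3 of these subunits in that fit, where it called 4092 of 14048 genes. By complex the medians were -0.11 for 37 subunits of complex I, -0.29 for 4 of complex II, -0.10 for 9 of complex III, -0.06 for 13 of complex IV and -0.15 for 18 of ATP synthase. The complex II gene Sdhb, an iron-sulfur subunit, had 83.2, 102 and 127 CPM in EIC 1 to 3 and 57.9, 60.8 and 81.0 CPM in 16IC 1 to 3 (log2 fold change -0.64, edgeR adjusted p = 0.169). The complex I gene Ndufb3 had 16.7, 20.6 and 18.2 CPM against 25.8, 23.9 and 26.0 CPM (log2 fold change 0.45, edgeR adjusted p = 0.240).

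**Figure D5:**
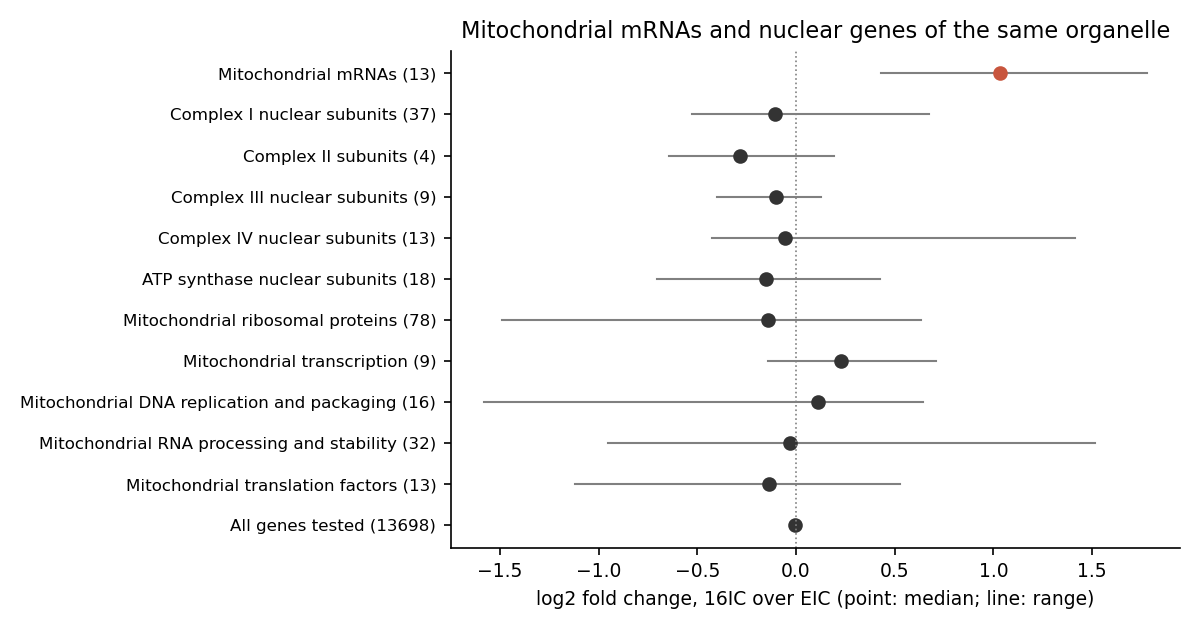
Median log2 fold change of 16IC over EIC (points) and range over members (lines) for the mitochondrial mRNAs and for lists of nuclear genes, with the number of tested members in brackets. The mitochondrial mRNAs have a median of 1.03, and the medians of the 10 nuclear lists drawn here lie between -0.29 and 0.23.

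Among genes for copying and packaging mitochondrial DNA, edgeR called 0 of 16, beside 2.45% of all genes. Tfam, which coats mitochondrial DNA and starts its transcription, had 52.5, 54.2 and 44.5 CPM in EIC 1 to 3 and 38.9, 42.9 and 31.4 CPM in 16IC 1 to 3. The groups did not overlap, with the higher level in EIC (14.2% of all genes), and edgeR did not call it (log2 fold change -0.42, SE 0.19, adjusted p = 0.265). The DNA polymerase gene Polg lay the other way, with 95.5, 90.7 and 66.4 CPM against 123, 112 and 111 CPM (log2 fold change 0.45, edgeR adjusted p = 0.222). Slc25a33, which encodes a pyrimidine nucleotide carrier, had 26.1, 8.28 and 24.7 CPM in EIC and 6.37 to 6.71 CPM in 16IC (log2 fold change -1.58, edgeR adjusted p = 0.119). DESeq2 called Slc25a33 (adjusted p = 0.0204), and so did edgeR without EIC 2 (adjusted p = 0.0403).

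Of 9 transcription genes edgeR called 0 (2.45% of all genes), and 8 had positive log2 fold changes (49.7% of all genes), with a median of 0.23. Without 16IC 3 the median was 0.098, with 7 positive. The RNA polymerase gene Polrmt had 41.9, 49.4 and 41.6 CPM in EIC and 44.8, 50.2 and 63.4 CPM in 16IC, and the initiation factor gene Tfb2m 21.1 to 25.02 CPM and 21.3 to 33.1 CPM. Both overlapped, with log2 fold changes of 0.25 and 0.22 (edgeR adjusted p = 0.505 and 0.622). Mterf3 had 16.7 to 17.6 CPM and 17.5 to 23.6 CPM. Of 12 tested regulators of mitochondrial biogenesis, a separate list, edgeR called 0 (2.45% of all genes). Their log2 fold changes were positive in 4 (49.7% of all genes) and negative in 8, with a median of -0.11. The smallest p was that of Pparg, lower in 16IC (log2 fold change -2.17, edgeR adjusted p = 0.0787). In the same list the coactivator gene Ppargc1a, a regulator of mitochondrial gene programmes, had 7.40, 2.28 and 14.0 CPM in EIC and 7.51, 14.6 and 27.4 CPM in 16IC (fitted log2 difference 1.07, SE 0.75, edgeR adjusted p = 0.451). Its relative Ppargc1b stayed below the filter, at 0.120 to 0.453 CPM.

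The list of RNA processing and stability genes held the 1 call among the lists of nuclear mitochondrial genes. Fastkd2, which encodes an RNA-binding protein of mitochondrial RNA granules, had 9.56, 15.6 and 10.2 CPM in EIC 1 to 3 and 30.9, 32.0 and 38.1 CPM in 16IC 1 to 3. It rose by 1.52 on the log2 scale (SE 0.27, edgeR adjusted p = 0.0489). Leaving out EIC 1, EIC 3, 16IC 1 or 16IC 2 ended the call (edgeR adjusted p = 0.163, 0.176, 0.180 and 0.189), and it held without EIC 2 or 16IC 3 (0.0446 and 0.0347). Fastkd2 was also not called without a filter on low counts (0.0694) or with 16IC 1 and 16IC 2 averaged (0.182). That is 1 of 32 genes of the list, beside 2.45% of all genes. Over the list the log2 fold change was positive in 13 (49.7% of all genes) and negative in 19, with a median of -0.032. The groups did not overlap in 8 genes with EIC higher (14.2% of all genes) and in 2 with 16IC higher (17.2%). Pde12, which encodes an enzyme that shortens poly(A) tails in mitochondria, had 37.1, 28.4 and 32.3 CPM in EIC and 16.5, 20.8 and 13.2 CPM in 16IC (fitted log2 difference -0.95, SE 0.25, edgeR adjusted p = 0.0944). DESeq2 called Fastkd2 higher and Pde12 lower in 16IC (DESeq2 adjusted p = 0.000205 and 0.0222), beside 12.4% of all genes. With EIC 2 and 16IC 3 both left out, edgeR called both (edgeR adjusted p = 0.00274 and 0.0235), among 4092 of 14048 genes. Lrpprc, whose protein stabilises mitochondrial mRNAs, had 120.5, 91.9 and 118 CPM against 113, 118 and 106 CPM (log2 fold change 0.030, edgeR adjusted p = 0.936). Slirp, its partner, was below the filter at 0.120 to 0.626 CPM.

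Ribosomal proteins of the mitochondrion lay slightly below 0 as a list. Of 78 tested, edgeR called 0 (2.45% of all genes), 18 had positive (49.7% of all genes) and 60 negative log2 fold changes, and the median was -0.14. With EIC 2 and 16IC 3 both left out there were 35 positive and 43 negative, and the median was -0.028. EdgeR called 4 of the list in that fit, where it called 4092 of 14048 genes. Mrps16, a small-subunit protein gene, had 19.7, 30.3 and 19.6 CPM in EIC and 8.89, 8.55 and 7.38 CPM in 16IC (log2 fold change -1.49, SE 0.28). It missed the threshold in edgeR (adjusted p = 0.0526), while DESeq2 called it (adjusted p = 0.000185). Of 13 translation factors edgeR called 0 (2.45% of all genes), with a median of -0.14.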

How the data were processed

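The members, lists and tests were chosen with earlier results of these data known. Per the submitters' processing notes the tools were Trimmomatic, STAR, HTSeq, edgeR and limma, with builds GRCm38 and mm10. Of read length, strand setting and RNA selection the sources used here say nothing. The deposited table holds the authors' whole-number read count per gene and line. It also holds a normalised signal made by the authors, their FPKM, and their log2 fold change with p-value and adjusted p-value, of which the adjusted p-value alone is quoted. Replicate numbers follow accession order and pair nothing.

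Counts were filtered with edgeR's filterByExpr (minimum count 10), scaled by TMM and compared by edgeR's quasi-likelihood test (version 4.0.16 in R 4.3.3). The threshold was 0.05 on p adjusted over 13698 genes by the Benjamini-Hochberg method. Fold changes are 16IC over EIC, and SE is that of the fitted value. CPM is the usual count scaled to the TMM-adjusted library total, with 3 lines a group. Limma-voom (limma 3.58.1), DESeq2 1.42.0, other scalings and filters, averaging 16IC 1 with 16IC 2, and leaving out lines were alternatives. Leaving out EIC 2 and 16IC 3 together was chosen after seeing the data. The tests were tried on simulated data. Every mRNA, rRNA and tested tRNA is named. From each list up to 4 genes of lowest p could be named, as could Tfam, Polrmt, Tfb2m, Mterf3, Lrpprc, Slirp, Ppargc1a and Ppargc1b. Shared sequence was found as exact windows of 50 bases between GENCODE M21 transcripts. The mitochondrial tRNAs mt-Tf, mt-Tv, mt-Td and mt-Tk were not analysed here.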

Additional observations from a re-analysis of the deposited data

How the results depend on the processing

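With 3 lines a group the precision is limited by the lines and not by counting for the abundant mRNAs, while mt-Atp8, mt-Nd3 and the tRNAs are also limited by counts. The 335 genes called in all became 223 without a filter on low counts, 0 with 16IC 1 and 16IC 2 averaged (2257 at an unadjusted p under 0.05), 2032 with DESeq2, 4092 with EIC 2 and 16IC 3 both left out, and 0 to 1912 without 1 line. The 0 calls among mitochondrial mRNAs became 2 with DESeq2 and 1 with EIC 2 and 16IC 3 both left out, and the 0 among rRNAs and tRNAs became 1 and 3. The 3 were mt-Rnr1, mt-Rnr2 and mt-Tw, each lower in 16IC. The 1 call among the nuclear mitochondrial lists became 9 with DESeq2, 19 with those lines left out, and 0 to 5 without 1 line. Over all genes DESeq2 called 12.4%, and the fit with those lines left out called 4092 of 14048. The difference in log2 mRNA share, 1.04, became 0.62 without both lines, and the number of mRNA shares that do not overlap, 1 of 13, became 7, and 1 to 3 without 1 line.

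Of 423 member values under alternatives, 402 kept direction and side of the threshold, 7 became called and 14 turned sign, in 6 members. These were mt-Tw (-0.05; 0.016 with upper-quartile factors, 0.50 averaged, -3.35 to 0.86 without 1 line), mt-Tp (0.05; -0.029 with limma-voom, -0.47 to 0.37 without 1 line, -0.76 without both), mt-Tc (0.99; -0.86 to 1.43 without 1 line, -1.25 without both), and without both lines also mt-Tl1 (-0.080), mt-Tn (-0.42) and mt-Nd4l (-0.095). Without both lines mt-Tw kept its negative sign, at -3.82. The cause of the turned signs was not tested. The median over all genes moved by at most 0.06 under any scaling. No paired analysis was possible because the replicate numbers only follow accession order.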

Other observations

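Genes of mitophagy and of the mitochondrial stress response, which belong to no comparison above, had the following values. Of 17 tested mitophagy and dynamics genes edgeR called 0 (2.45% of all genes). At an unadjusted edgeR p under 0.05 there were 3, against 22.7% of all genes. Log2 fold changes were positive in 8 (49.7% of all genes) and negative in 9, with a median of -0.0030. The 4 genes with the smallest p follow. Bnip3l, a mitophagy receptor of the outer membrane, had 86.8, 142 and 96.6 CPM in EIC 1 to 3 and 42.2, 49.5 and 61.6 CPM in 16IC 1 to 3 (log2 fold change -1.09, edgeR adjusted p = 0.0825). Fundc1, another such receptor, had 39.1, 44.0 and 54.5 CPM against 25.5, 25.6 and 27.1 CPM (log2 fold change -0.82, edgeR adjusted p = 0.0832). Bnip3 had 65.2, 31.6 and 61.0 CPM against 5.17, 10.4 and 25.3 CPM (log2 fold change -1.95, edgeR adjusted p = 0.137). In these 3 receptor genes every EIC line lay above every 16IC line (14.2% of all genes), and DESeq2 called all 3 (adjusted p = 0.0122, 0.0195 and 0.0205, where it called 5.75% of all genes lower in 16IC). Optn, an autophagy receptor, lay the other way without overlap, with 29.4, 37.4 and 30.5 CPM in EIC and 42.7, 43.95 and 41.0 CPM in 16IC (log2 fold change 0.39, edgeR adjusted p = 0.258).

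Of 19 stress-response genes edgeR called 0 (2.45% of all genes). A positive log2 fold change was found in 1 (49.7% of all genes) and a negative one in 18, with a median of -0.48, which ran from -0.30 without 16IC 3 to -0.81 without 16IC 2. The serine synthesis gene Psat1 had 437, 299 and 455 CPM in EIC 1 to 3 and 178, 266 and 98.7 CPM in 16IC 1 to 3 (log2 fold change -1.13, edgeR adjusted p = 0.160). The secreted stress factor gene Gdf15 had 20.8 and 30.4 CPM in EIC 1 and EIC 3 and 0.480 CPM in EIC 2, against 0.481 to 1.10 CPM in 16IC, so that the groups overlapped. Its log2 fold change was -4.56, which DESeq2 called (adjusted p = 0.00067) and edgeR did not with all lines (adjusted p = 0.123), though it did without EIC 2 (edgeR adjusted p = 0.0346).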
